A study of Mus musculus with 18 samples.

Results

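CTCF regions that mouse embryonic stem cells kept in 3 genotypes were examined where they lie at the ends of protein-coding genes. Overlapping peaks of the 3 genotypes were merged into 78072 regions. Regions were chosen by the presence of a peak in every genotype and by position: every list had to hold a peak, and a wild-type summit, the position of the highest signal, lay within 1 kb of either boundary of a protein-coding gene. This gave 4659 regions, which is 9% of the 51763 regions found in every genotype (called constant here) and 5.97% of all merged regions. Gene-end region here means a region at either boundary. The other 47104 constant regions had their summit farther away, 23027 inside a protein-coding gene and 24077 between genes.

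The data are CTCF ChIP-seq, in which DNA bound by CTCF is precipitated with an antibody and sequenced beside an unprecipitated input. The SKO line lacks Dnmt1, Dnmt3a, Dnmt3b, Tet1, Tet2 and Tet3, the TKO line lacks Tet1, Tet2 and Tet3, and the WT line has all 6 genes. Each genotype has 3 ChIP and 3 input samples, which the authors pooled before calling peaks, so every value below is 1 value per genotype with no replicate spread and no test between genotypes is possible. Cells of all genotypes were grown with LIF and serum replacement on irradiated mouse fibroblasts, whose chromatin may be present, and its part was not tested. Each genotype is a separate line, so the missing enzymes and other differences between lines cannot be told apart. Peak lists give no expression, so the cell type named in the labels could not be checked against marker genes.

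CTCF is a DNA-binding protein with a row of zinc fingers that, together with cohesin, anchors chromatin loops and insulates neighbouring domains. Methylation of CpG within its motif can hinder binding at some sites; DNMT enzymes place this methylation and TET enzymes oxidise it. CTCF also binds close to many promoters, most of which are CpG-rich and unmethylated in most cell types.

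Sequence could be read for regions whose summit lay in a RefSeq promoter window (GRCm38.p6, the assembly behind mm10; 250 bases before a gene start and 50 after it). Shown first are 4 of the 5 gene-end regions with the highest WT fold enrichment, followed by 4 regions at gene starts among those whose enrichment differed most between genotypes. Each runs in the direction of the gene, 60 bases either side of the WT summit or to the end of the window. Capitals mark the core letters of the CTCF motif searched on both strands, which read CC, 3 bases of any kind, AG, 2 bases of any kind and GGC. These are Adprhl2 (chr4:126321740-126321860, minus strand), Nsfl1c (chr2:151494088-151494208, plus strand), Slc36a1 (chr11:55204218-55204338, plus strand) and Sh3glb1 (chr3:144720490-144720585, minus strand).
Adprhl2: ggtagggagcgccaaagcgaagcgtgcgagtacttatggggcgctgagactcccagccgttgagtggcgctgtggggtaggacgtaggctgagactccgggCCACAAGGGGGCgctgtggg
Nsfl1c: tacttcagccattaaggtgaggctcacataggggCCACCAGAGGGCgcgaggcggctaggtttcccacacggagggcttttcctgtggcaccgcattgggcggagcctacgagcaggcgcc
Slc36a1: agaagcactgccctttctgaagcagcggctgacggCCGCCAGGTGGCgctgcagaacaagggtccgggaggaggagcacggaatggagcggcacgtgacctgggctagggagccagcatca
Sh3glb1: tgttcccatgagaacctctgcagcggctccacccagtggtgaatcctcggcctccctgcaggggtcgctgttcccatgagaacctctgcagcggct
The regions that differed are at Serinc3 (chr2:163645189-163645309, minus strand), Pwwp3a (chr10:80226390-80226510, plus strand), Wdr41 (chr13:94976159-94976279, plus strand) and Nucb2 (chr7:116504119-116504201, plus strand).
Serinc3: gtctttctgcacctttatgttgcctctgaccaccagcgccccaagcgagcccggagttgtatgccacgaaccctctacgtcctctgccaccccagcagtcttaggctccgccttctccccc
Pwwp3a: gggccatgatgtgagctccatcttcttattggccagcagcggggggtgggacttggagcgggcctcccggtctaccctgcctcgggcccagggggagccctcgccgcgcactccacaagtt
Wdr41: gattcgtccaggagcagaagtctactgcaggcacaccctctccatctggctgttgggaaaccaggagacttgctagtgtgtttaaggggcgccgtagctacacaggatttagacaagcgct
Nucb2: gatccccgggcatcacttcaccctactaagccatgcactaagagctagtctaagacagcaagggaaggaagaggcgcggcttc
The letters were present once in each of the Adprhl2, Nsfl1c and Slc36a1 stretches and in none of the other 5, which says only that these letters are not in those bases.

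Taken over all such promoters, the core letters were more frequent where a constant summit lay. Of 1067 promoter windows holding a summit of a gene-end region, 411 (38.5%) held these core letters on either strand, against 2096 of all 21238 protein-coding promoters (9.87%) and 1439 of the 18786 touched by no WT peak (7.66%). The stricter form with a G after AG, a subset of these, was in 264 (24.7%) of the windows with a summit, against 4.12% of all promoters. A form with CpG inside the core, which reads CCGCG, any base, GG, any base and GGC, was in 22 (2.06%), against 0.565% of all promoters, and it can match the same bases as the other motifs. Windows with a summit held a median of 21 CpG and 61% GC, against 13 CpG and 56.3% GC in all promoters.

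Of the 974 gene-end regions with a summit in these windows, 379 had the core letters in the window and 595 did not. In those 379 the centre of the nearest match lay a median of 30.5 bp from the WT summit. It lay within 50 bp in 256 of them (67.5%). The share with the motif was 28.8% of 191 regions in the weakest 2 bins of WT strength, 37.9% of 404 in the bins between, and 45.1% of 379 in the strongest 2, where 10 bins of equal size divide all constant regions by WT −log10 q. Regions with the motif had a median fold of 15.4 in SKO, 16.1 in TKO and 17.1 in WT, and those without it had 11.8 in SKO, 12.5 in TKO and 13 in WT.

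Constant CTCF regions lay more often at the start of a gene than at its other end. The strand was known for the boundary of 3714 regions, and 2338 of these (63%, 95% Wilson interval 61.4% to 64.5%) were at a start, 1206 (32.5%, 31% to 34%) at an end and 170 (4.58%) at the start of a gene and the end of a gene. The strand was not known for 945. The intervals cover counting error only. At starts the summits crowded just before the first base: 784 of 2668 pairs of region and start (29.4%) lay in the 200 bp before the start, 60.5% lay before it in all, and the median position was 69 bp before it. Within 100 bp there were 435 pairs before the start and 203 after it.

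At gene ends proper the pattern was different. Of 1470 pairs, 87 (5.92%) lay in the last 200 bp of the gene, 861 (58.6%) lay past the end, and the median position was 166 bp past it. Only 29 lay in the last 100 bp. Over both boundaries together, regions were densest 50 to 100 bp from the boundary, with 473 per 100 bp of window, and thinned to 162 per 100 bp between 750 and 1000 bp. The WT fold was highest in the same interval, with a median of 15.4, against 12.3 at 750 to 1000 bp.

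**Figure D1:**
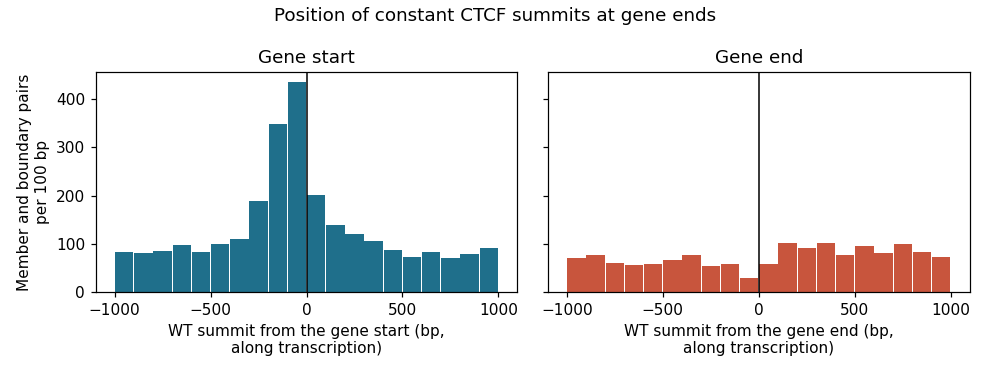
Number of pairs of a gene-end region and a gene boundary (vertical axis) by the position of the WT summit in bp along the direction of transcription (horizontal axis, bars of 100 bp, 0 at the boundary), at gene starts on the left and gene ends on the right. The highest bar at starts is the 100 bp before the start, with 435 pairs, and the lowest at ends is the last 100 bp of the gene, with 29.

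Values either side of the limit of 1 kb were as follows. The regions farthest from a boundary that were still taken lay at 1000 bp from Traf3, an adaptor of tumour necrosis factor receptors (fold 10.3 in SKO, 11.04 in TKO, 13.5 in WT), and from Idh2, the mitochondrial isocitrate dehydrogenase (4.8 in SKO, 4.69 in TKO, 5.9 in WT). Those nearest outside lay at 1001 bp from Nolc1, a nucleolar phosphoprotein (20.6 in SKO, 15.4 in TKO, 20.5 in WT), and from Slc24a1, a sodium, calcium and potassium exchanger (8.79 in SKO, 6.68 in TKO, 7.67 in WT).

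The regions touched 4664 of 21887 protein-coding genes (21.3%), most of them with a single region. There were 4178 genes with 1 region, 455 with 2, 30 with 3 and 1 with 4. Different regions stood at both boundaries of 360 genes, of which 341 were at least 2 kb long. Of the regions, 486 lay near 2 genes and 8 near 3 or more. With known strands, 148 lay within 1 kb of the starts of 2 genes on opposite strands, though not always between them, and had a median WT fold of 10. Another 109 lay at the start of a gene and the end of another, and 82 at 2 ends.

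Hpn, a serine protease of the liver cell surface, had the 4 regions, all on chromosome 7. The strongest of them (chr7:31097598-31098020) had a fold of 22.5 in SKO, 51.6 in TKO and 34.9 in WT. The others had WT folds of 14.1, 7.89 and 6.65. The genes with 3 regions included Col23a1, a membrane collagen, and Rcan2, an inhibitor of calcineurin. The strongest region of Col23a1 (chr11:51289365-51289861) had 19.7 in SKO, 30 in TKO and 55.9 in WT. The strongest region of Rcan2 (chr17:43802051-43802703) was nearly level between genotypes, at 26.1 in SKO, 24.4 in TKO and 26 in WT.

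Gene-end regions took a larger share of the strongest and of the weakest constant regions than of those between. They made up 16.2% of the strongest bin (839 regions) and 11.4% of the weakest (589), with a low of 6.59% in the fourth (341). More of them had several WT summits, 7.73% against 3.51% of the other constant regions, and their WT peaks were wider, with a median of 420 bp against 397 bp. The median fold, which is the authors' ratio of ChIP signal to local background, was 11.8 in SKO, 11.5 in TKO and 12.8 in WT at gene ends. In the other constant regions it was 11.7 in SKO, 11.2 in TKO and 12.7 in WT.

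**Figure D2:**
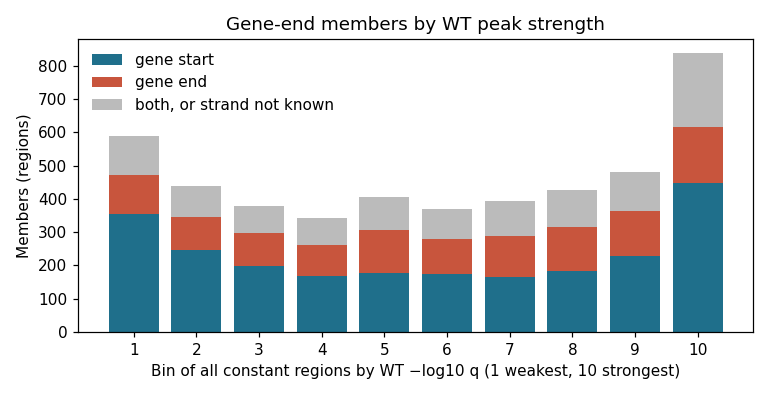
Number of gene-end regions (vertical axis) in each of 10 equal bins of all constant regions by WT −log10 q (horizontal axis, weakest to strongest), split by the boundary they lie at. The weakest bin holds 589, the fourth 341 and the strongest 839.

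The near-equal folds covered higher values of both parts of the ratio. The pileup, the number of ChIP fragments over the summit, and the local background, the number expected there from input, were solved from the authors' fold and −log10 p. The median pileup at gene ends was 48 in SKO, 59 in TKO and 65 in WT, against 40 in SKO, 49 in TKO and 56 in WT in the other constant regions. The median local background at gene ends was 3.06 in SKO, 4.09 in TKO and 4.23 in WT, against 2.33 in SKO, 3.46 in TKO and 3.44 in WT elsewhere. The lowest background in a list, which reflects its depth, was 1.37 in SKO, 1.82 in TKO and 1.76 in WT. Ratios between genotypes were therefore centred on the median of all constant regions, which was 0.928 for the fold of SKO over WT, 0.896 for TKO over WT and 1.04 for SKO over TKO. For pileup this median was 0.733 for SKO over WT, 0.891 for TKO over WT and 0.821 for SKO over TKO. The comparisons of SKO and of TKO with WT share the WT list.

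The 5 regions of highest WT fold were high in every genotype. The region at the start of Adprhl2, an ADP-ribose hydrolase, had a fold of 73 in SKO, 85.4 in TKO and 92.2 in WT, with pileups of 412 in SKO, 434 in TKO and 481 in WT. That at Nsfl1c, a cofactor of the p97 ATPase, had folds of 68.5 in SKO, 54.8 in TKO and 82.7 in WT. The region at Exd1, a piRNA pathway protein (chr2:119546835-119547457), had 83.7 in SKO, 65.5 in TKO and 78.8 in WT. WT had the highest fold at Adprhl2 and Nsfl1c and SKO at Exd1. At Slc36a1, a proton-coupled amino acid transporter, the fold was 65.6 in SKO, 46.2 in TKO and 65.9 in WT. Its centred pileup ratio was near 1 in both knockouts, 0.975 (0.79 to 1.2) in SKO and 1.04 (0.856 to 1.26) in TKO, both over WT. At Sh3glb1, an endophilin that shapes membranes, the fold was 77.2 in SKO, 83.2 in TKO and 65.6 in WT. The intervals here and below are exact binomial 95% intervals from the pileups and cover counting error only.

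Without TET enzymes, gene-end regions lay slightly higher relative to WT than constant regions elsewhere. The median centred log2 ratio of fold of TKO over WT was 0.062 at gene ends and -0.006 in the other constant regions. At gene ends 652 regions (14%) were higher in TKO by at least 1.5 times and 410 (8.8%) were lower, where 11.8% of all constant regions were higher and 12.2% lower. Without centring the split turned, with 386 regions higher and 703 lower. In pileup the medians were 0.036 at gene ends and -0.004 elsewhere, with 255 regions (5.47%) higher and 131 (2.81%) lower, where 5.04% of all constant regions were higher and 5.11% lower. Since a region had to have a peak in every list to be taken, these shares describe the regions and carry no test. Regions at gene starts had a median fold ratio of 0.10 and those at gene ends proper 0.012 on the same log2 scale, while in pileup they had 0.048 at starts and 0.031 at ends.

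Without TET and DNMT enzymes, the difference from other constant regions had the same sign. The median centred log2 ratio of fold of SKO over WT was 0.041 at gene ends and -0.004 elsewhere, and in pileup it was 0.048 at gene ends and -0.004 elsewhere. In fold 672 regions (14.4%) were higher in SKO by at least 1.5 times and 553 (11.9%) were lower, where 13.6% of all constant regions were higher and 13.8% lower. Without centring the split turned here too, with 496 higher and 725 lower. In pileup 318 (6.83%) were higher and 232 (4.98%) lower, where 6.03% of all were higher and 7.69% lower.

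Between the knockouts the medians were closer to those of other regions. The median centred log2 ratio of fold of SKO over TKO was -0.023 at gene ends and 0.003 elsewhere, and in pileup it was 0.004 at gene ends and 0.000 elsewhere. In fold 579 regions (12.4%) were higher in SKO and 683 (14.7%) lower, where 13.7% of all constant regions were higher and 13.7% lower. Without centring the split turned, with 671 higher and 594 lower. In pileup 276 (5.92%) were higher and 292 (6.27%) lower, where 5.71% of all were higher and 6.58% lower.

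Set beside constant regions of like WT strength, the gene-end medians in pileup lay above the others in 10 of 10 bins for TKO over WT and in 10 of 10 for SKO over WT, and in 4 of 10 for SKO over TKO. In fold the counts were 10 of 10 for TKO over WT, 9 of 10 for SKO over WT and 1 of 10 for SKO over TKO. In the strongest bin the median log2 ratio of fold of TKO over WT was 0.010 at gene ends and -0.131 elsewhere. In the weakest bin all medians over WT were high, 0.300 in pileup for TKO over WT at gene ends and 0.294 elsewhere. The bins are set by the WT value that is also the denominator, and a region was taken only where both knockouts had a peak; the part of either in these ratios was not tested.

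**Figure D3:**
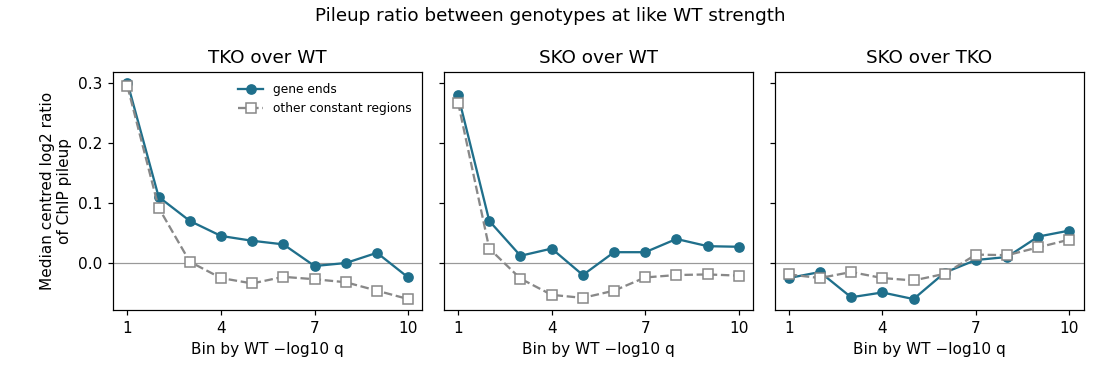
Median centred log2 ratio of ChIP pileup (vertical axis) in each of 10 equal bins of constant regions by WT −log10 q (horizontal axis, weakest to strongest), for TKO over WT, SKO over WT and SKO over TKO; filled circles are gene-end regions and open squares the other constant regions. Gene ends lie above the others in every bin of the left and middle panels and in 4 of 10 on the right.

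The regions whose fold differed most between genotypes often had a different local background. Over gene-end regions the log2 ratio of TKO over WT had an SD of 0.49 in fold, 0.32 in pileup and 0.40 in background, and counting error alone gives a median SD of 0.26 for the pileup ratio. For SKO over WT the SDs were 0.53 in fold, 0.38 in pileup and 0.42 in background. Among the 1062 regions past 1.5 times in fold for TKO over WT, the background moved more than the pileup in 673 (63.4%), and the count was 723 of 1225 (59%) for SKO over WT and 734 of 1262 (58.2%) for SKO over TKO. Regions past 1.5 times in both fold and pileup numbered 172 higher and 67 lower for TKO over WT, 190 higher and 134 lower for SKO over WT, and 150 higher and 176 lower for SKO over TKO. Over all gene-end regions the single-region pileup interval lay above 1 in 228 and below 1 in 144 for TKO over WT, in 390 and 211 for SKO over WT, and in 331 and 235 for SKO over TKO. The counts in this paragraph are not given for all constant regions, so they do not show whether gene ends differ from these. The regions named next were picked from all gene-end regions for their extreme fold, which holds the pileup, so their intervals, unadjusted, describe counting error and test nothing.

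Among the regions higher in TKO than in WT, that of Rec114, which is needed for meiotic DNA breaks, had a pileup of 21 fragments in SKO, 46 in TKO and 21 in WT. The centred pileup ratio of TKO over WT was 2.46 (1.44 to 4.33). Its folds were 8.26 in SKO, 10.5 in TKO and 4 in WT (chr9:58822217-58822749). The regions at the starts of Ctsa, the lysosomal cathepsin A, and Serinc3, a multipass membrane protein, also ranked among the highest in fold ratio while their pileup intervals included 1. At Ctsa the fold was 8.32 in SKO, 14.1 in TKO and 4.73 in WT, the pileup 35 in SKO, 58 in TKO and 45 in WT, and the background 3.33 in SKO, 3.19 in TKO and 8.72 in WT. WT had the highest background, and the centred pileup ratios over WT were 1.06 (0.662 to 1.69) in SKO and 1.45 (0.963 to 2.18) in TKO. At Serinc3 the fold was 7.44 in SKO, 12.8 in TKO and 4.95 in WT, with a background of 6.66 in SKO, 4.09 in TKO and 10.31 in WT. The region at Fam98c had folds of 7.34 in SKO, 10.8 in TKO and 4.1 in WT, and a pileup ratio of TKO over WT of 1.48 (0.883 to 2.51).

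Among the regions lower in TKO, that near the end of Tlr5, the receptor for bacterial flagellin (chr1:182974841-182975354), had 30 fragments in SKO, 19 in TKO and 50 in WT. Its centred pileup ratio of TKO over WT was 0.426 (0.237 to 0.736). The region at Pklr, the pyruvate kinase of liver and red cells (chr3:89136448-89136886), had a fold of 19.8 in SKO, 5.13 in TKO and 19.5 in WT. Its pileup was 78 in SKO, 59 in TKO and 96 in WT, while the background was 3 in SKO, 10.71 in TKO and 3.96 in WT, so TKO had the lowest pileup and the highest background. At Gnmt, glycine N-methyltransferase, the fold was 24.3 in SKO, 11.3 in TKO and 34.4 in WT with a pileup ratio of TKO over WT of 0.93 (0.698 to 1.24) and a background of 7.24 in TKO, the highest of the 3 genotypes. The region at the predicted gene Gm8094 had a fold of 18 in SKO, 4.79 in TKO and 14.7 in WT.

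In SKO the lowest centred fold relative to WT was at Pwwp3a, which encodes a chromatin protein with a PWWP domain. The summit lay 19 bp from the gene start (chr10:80226272-80226623). The fold was 8.45 in SKO, 19.6 in TKO and 37.2 in WT, and the pileup 44 in SKO, 154 in TKO and 154 in WT. SKO was thus the only genotype apart in pileup, at a ratio of 0.39 (0.272 to 0.548) over WT and 0.348 (0.243 to 0.49) over TKO. Wdr41, a partner of C9orf72, had folds of 4.9 in SKO, 6.77 in TKO and 19.3 in WT, with a background of 5.33 in SKO, 5.35 in TKO and 1.85 in WT and a pileup ratio of SKO over WT of 0.758 (0.468 to 1.21). For Zc3h12d, an RNase of the regnase family, the pileup ratio of SKO over WT was 0.655 (0.427 to 0.986), and for the Janus kinase gene Tyk2 it was 0.629 (0.371 to 1.04).

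Among the regions highest in fold in SKO relative to WT, those of Plbd1, Mrps18b and Gcfc2 also had a pileup interval above 1, and that of Rps6ka1 did not. At the end of Plbd1, a phospholipase B-like protein (chr6:136612257-136612872), the pileup was 42 in SKO, 40 in TKO and 26 in WT, with a ratio of SKO over WT of 2.2 (1.32 to 3.74) and of TKO over WT of 1.73 (1.03 to 2.95). At the start of Mrps18b, a mitochondrial ribosomal protein (chr17:35916091-35916615), the pileup was 79 in SKO, 60 in TKO and 58 in WT, a ratio of SKO over WT of 1.86 (1.31 to 2.65). At Gcfc2 the pileup was 38 in SKO, 27 in TKO and 26 in WT, a ratio of 1.99 (1.18 to 3.42). At Rps6ka1, a ribosomal S6 kinase, the fold was 33.2 in SKO, 16.4 in TKO and 11 in WT, but the pileup was 102 in SKO, 119 in TKO and 126 in WT, and the background 2.1 in SKO, 6.3 in TKO and 10.57 in WT.

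Between SKO and TKO the lowest pileup ratios among the named regions other than Pwwp3a were at Dpy19l4, of a family of C-mannosyltransferases, at Dennd4c, a Rab exchange factor, and at Nucb2, the precursor of nesfatin. The pileup at Dpy19l4 was 25 in SKO, 74 in TKO and 59 in WT, and the ratio of SKO over TKO was 0.412 (0.251 to 0.656). At Dennd4c it was 23 in SKO, 67 in TKO and 51 in WT, a ratio of SKO over TKO of 0.418 (0.249 to 0.681). At Nucb2 it was 22 in SKO, 61 in TKO and 43 in WT, a ratio of SKO over TKO of 0.44 (0.257 to 0.726). SKO had the fewest fragments in all 3, and its list also had the lowest pileups in general. The centred pileup ratio of SKO over WT was 0.578 (0.347 to 0.937) at Dpy19l4. It was 0.615 (0.359 to 1.02) at Dennd4c and 0.698 (0.397 to 1.19) at Nucb2, where the intervals included 1. The region at Rai1, a nuclear protein induced by retinoic acid, had the lowest fold ratio, with folds of 10.3 in SKO, 39.5 in TKO and 27.2 in WT and a pileup ratio of SKO over TKO of 0.737 (0.568 to 0.953). At Angptl1, an angiopoietin-like secreted protein, the fold was 20.3 in SKO, 5.44 in TKO and 14 in WT, and the pileup ratio of SKO over TKO was 1.55 (0.985 to 2.45).

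**Figure D4:**
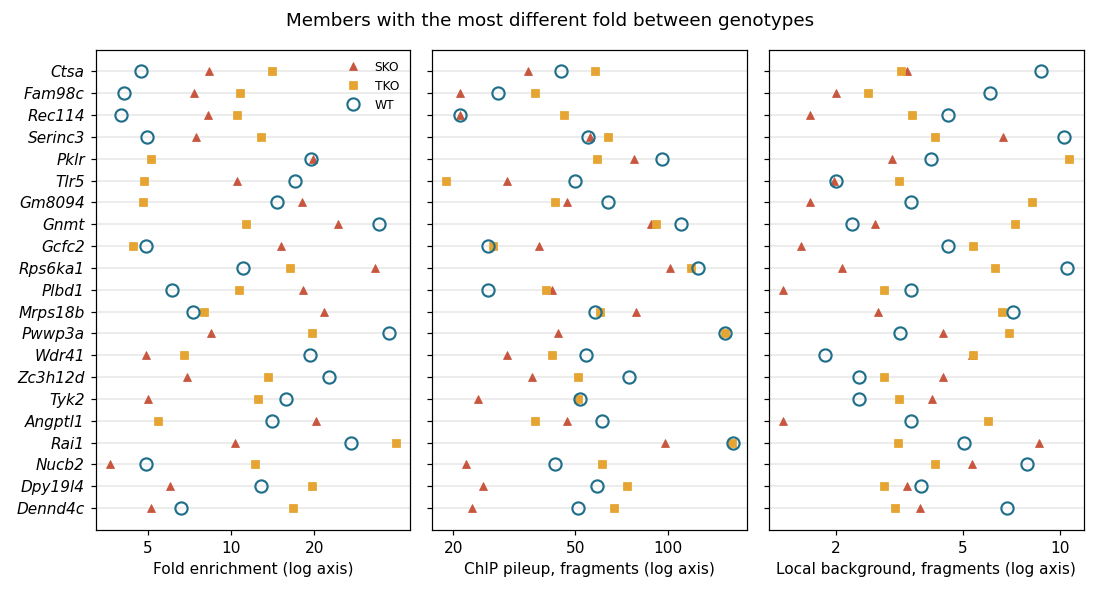
Fold enrichment, ChIP pileup and local background (horizontal log axes, in fragments for the last 2) of the 21 regions with the highest or lowest fold ratio between genotypes, named by the nearest gene; triangles are SKO, squares TKO and open circles WT, with 1 pooled value each. SKO stands apart in pileup at Pwwp3a (44 against 154 in TKO and WT), while at Rps6ka1 the genotypes are close in pileup and far apart in background.

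Gene groups differed widely in how many members had a constant region at a gene end, beside 21.3% of all protein-coding genes. The clustered protocadherins, cell surface adhesion proteins of neurons with CTCF-bound promoters, had a region at 55 of 57 genes (96.5%), and 53 of these had a region that no other listed gene shared. Their 58 regions had a median fold of 14.6 in SKO, 14 in TKO and 15.5 in WT. In TKO 8 were higher and 8 lower than in WT by fold, where 11.8% of all constant regions were higher and 12.2% lower, and 3 were higher and 0 lower by pileup, where 5.04% of all were higher and 5.11% lower. Pcdhb8 had a fold of 16.3 in SKO, 12.8 in TKO and 25.4 in WT, and Pcdhga12 had 30 in SKO, 24.3 in TKO and 24.8 in WT. How reads that match several near-identical copies were placed is not known, so values in such families are uncertain.

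Genes of the core machinery of the cell had between 26.5% and 47.6% with a region. Ribosomal proteins had a region at 40 of 84 genes (47.6%), with 50 regions in all. Among them a region near the end of Rpl22 had folds of 43 in SKO, 22.5 in TKO and 46.7 in WT. Its background was 2.3 in SKO, 7.87 in TKO and 4.23 in WT, and its pileup ratio of TKO over WT was 0.919 (0.758 to 1.11). Another region, near a boundary of Rpl36, whose strand was not known, had folds of 32.9 in SKO, 36 in TKO and 44.4 in WT. RNA polymerase II subunits had 5 of 13 (38.5%), led by Polr2j (73.6 in SKO, 42.4 in TKO, 44.8 in WT) and Polr2c (14.5 in SKO, 15.5 in TKO, 22.4 in WT). Mitochondrial ribosomal proteins had 27 of 78 (34.6%), with Mrpl17 at 34.2 in SKO, 70.2 in TKO and 55.9 in WT. Respiratory complex I had 12 of 37 (32.4%), the proteasome 12 of 39 (30.8%), Mediator, which links activators to polymerase, 9 of 30 (30%), replication licensing factors 5 of 17 (29.4%) and aminoacyl-tRNA synthetases 9 of 34 (26.5%). The Mediator gene Med4 held pileups of 508 in SKO, 447 in TKO and 613 in WT (chr14:73509689-73510246). The proteasome gene Psmd6 was nearly level, with folds of 55.7 in SKO, 48.8 in TKO and 57.1 in WT. Mcm5, a helicase subunit, had 23 in SKO, 18.8 in TKO and 21.8 in WT.

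Other families lay on both sides of the 21.3% of all genes. Solute carriers had a region at 91 of 364 genes (25%), and of their 103 regions 21 were higher and 2 lower in TKO than in WT by fold, and 11 higher and 1 lower by pileup. Of all constant regions 11.8% were higher and 12.2% lower by fold, and 5.04% higher and 5.11% lower by pileup. In SKO 16 were higher and 6 lower than in WT by fold, and 9 higher and 4 lower by pileup. For SKO over WT 13.6% of all constant regions were higher and 13.8% lower by fold, and 6.03% higher and 7.69% lower by pileup. Solute carrier regions had a median centred log2 ratio of fold of TKO over WT of 0.13, beside 0.062 for all gene-end regions. Slc39a13, a zinc transporter, had 56 in SKO, 59.7 in TKO and 60.2 in WT. Zfp zinc finger genes had 83 of 394 (21.1%), with Zfp90 at 41.7 in SKO, 54.8 in TKO and 49.4 in WT. Rab GTPases, which direct vesicle traffic, had 17 of 59 (28.8%), with Rab32 at 21.5 in SKO, 19.5 in TKO and 39.9 in WT. At Rab32 the background was 3.66 in SKO, 3.46 in TKO and 1.76 in WT, the last being the lowest of the WT list. Its pileup was 99 in SKO, 86 in TKO and 109 in WT. The centred pileup ratios over WT were 1.24 (0.934 to 1.64) in SKO and 0.885 (0.659 to 1.19) in TKO. Replication-dependent histones had 8 of 65 (12.3%).

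Groups tied to development and methylation had between 22.6% and 28.6% of their genes with a region. Hox genes had 10 of 39 (25.6%), with Hoxc10 at 41.9 in SKO, 37.8 in TKO and 50 in WT. Pluripotency genes had 6 of 26 (23.1%), with the growth factor gene Gdf3 at 11.1 in SKO, 14.7 in TKO and 17.8 in WT. DNA methylation enzymes and readers had 6 of 21 (28.6%), among them Zbtb33, which encodes the methyl-CpG reader Kaiso, at 9.76 in SKO, 16 in TKO and 17.1 in WT. Imprinted genes had 10 of 42 (23.8%). Of the imprinted genes, Kcnk9, a potassium channel (chr15:72549332-72549825), had a pileup of 107 in SKO, 62 in TKO and 109 in WT. The centred pileup ratios over WT were 0.638 (0.459 to 0.879) in TKO and 1.34 (1.02 to 1.76) in SKO. Germline genes silenced by DNA methylation had 7 of 31 (22.6%), and of their 8 regions 4 were higher and 0 lower in TKO than in WT by fold, and 2 higher and 0 lower by pileup, beside the shares of all constant regions given above for TKO over WT. Their median WT fold was 7.51 and their median log2 ratio of fold of TKO over WT was 0.46. Gene-end regions had a median of 0.409 in the weakest bin, 0.096 in the second and 0.072 in the third. The bins in which these 8 regions lie are not given, so their part in the ratio was not tested. The meiotic gene Sycp2 had folds of 31.9 in SKO, 30.5 in TKO and 28.6 in WT, and Dpep3 had 48.2 in SKO, 49.1 in TKO and 32.5 in WT. At Dpep3 the pileup was 288 in SKO, 249 in TKO and 349 in WT, with centred ratios over WT of 1.13 (0.959 to 1.32) in SKO and 0.8 (0.678 to 0.944) in TKO. Its background was 4.99 in SKO, 4.09 in TKO and 9.78 in WT.

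Chromosome architecture genes had a region at 4 of 25 (16%). Ctcfl, the germline paralogue of CTCF, had 24.6 in SKO, 38.6 in TKO and 35.5 in WT, and the cohesin gene Smc3 had 22.4 in SKO, 36.6 in TKO and 23.6 in WT. At Smc3 the pileup was 141 in SKO, 151 in TKO and 141 in WT, a ratio of TKO over WT of 1.2 (0.949 to 1.52). Its background was 5.33 in SKO, 3.15 in TKO and 5.02 in WT. NuRD is the chromatin remodelling and deacetylase complex that the study's title names. The list used for it, which also counts Zmynd8, not itself a core subunit, had 2 of 19 genes (10.5%). The deacetylase gene Hdac1 had folds of 8.6 in SKO, 8.74 in TKO and 15.1 in WT, with pileups of 62 in SKO, 93 in TKO and 90 in WT. Zmynd8 had folds of 11 in SKO, 10.9 in TKO and 14.2 in WT.

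**Figure D5:**
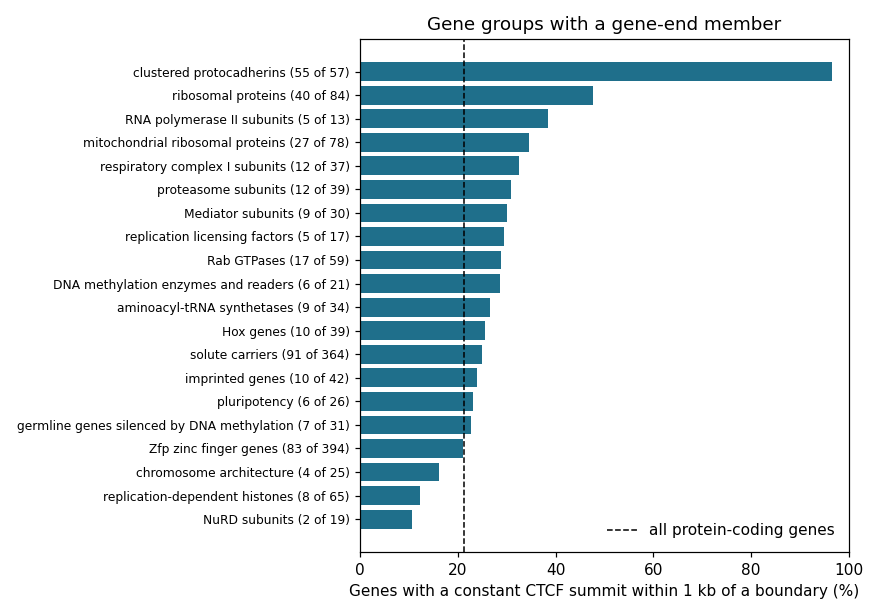
Percent of the genes of each group (horizontal axis) that have a constant CTCF summit within 1 kb of a boundary, with the number of genes beside each name; the dashed line marks all protein-coding genes at 21.3%. Clustered protocadherins reach 96.5%, ribosomal proteins 47.6% and the group labelled NuRD subunits, which also counts Zmynd8, 10.5%.

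By CpG content of the promoter, the pileup ratios over WT were in ascending order while the fold ratios over WT were not. The 352 gene-end regions in promoters with the fewest CpG (median 11) had a median log2 ratio of fold of TKO over WT of 0.031, the 315 between (median 21) 0.180, and the 307 with most CpG (median 29) 0.118. In pileup of TKO over WT the same groups had 0.033, 0.058 and 0.083, and in pileup of SKO over WT they had 0.014, 0.072 and 0.102. In fold of SKO over TKO they had -0.025, -0.123 and -0.147, while in pileup of SKO over TKO they had -0.009, 0.000 and -0.013, without such an order. Summits kept their place: the summit of the SKO peak lay a median of 11 bp and that of the TKO peak 9 bp from the WT summit, and within 100 bp in 97.8% of gene-end regions in SKO and 98.2% in TKO.

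Across the autosomes there were between 17.1 regions per 100 protein-coding genes, on chromosome 16, and 29.4, on chromosome 18; the X had 9.01. Chromosome 14 and the X departed in pileup. The median log2 pileup ratio of SKO over WT was -0.240 at gene ends and -0.222 elsewhere on chromosome 14, and 0.250 at gene ends and 0.170 elsewhere on the X. In fold the gene-end medians of SKO over WT were 0.010 on chromosome 14 and 0.027 on the X. Without these chromosomes 295 gene-end regions were higher and 210 lower in SKO than in WT by pileup. The shares of all constant regions without them are not given, so these counts do not show whether gene ends differ. The median log2 pileup ratio of SKO over WT at gene ends minus that elsewhere was 0.053 without them and 0.052 with them.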

How the data were processed

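CTCF ChIP-seq and input libraries of 18 samples were pooled by the authors to 1 peak list per genotype, per the labels. Per the submitters' processing notes the build is mm10 and the tools include MACS2 2.1.2, Bowtie2 2.3.4 and SAMtools 1.9, beside deepTools 3.5.0, FastQC 0.11.7 and bedtools 2.25.0; their settings and any read filter were not given. Each deposited peak carries a fold (the ratio of ChIP signal to local background at the summit), a −log10 p, a −log10 q and a score; the authors' score column was not used further. The lists hold q of 0.05 or less. Read totals were not used here, and the depth shows only as the genome background of each list. The libraries were amplified by PCR and no molecular identifiers are mentioned, so intervals cover counting error only.

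Rows with equal intervals were joined and lists merged at an overlap of at least 1 bp. A region's level in a list is that of its peak with the highest −log10 q. Pileup and background were solved as the whole pileup that returns the deposited fold and −log10 p (relative tolerance 1e-04), which failed in 1 TKO row; the solver was tested on simulated data. Pileup ratios take a pseudocount of 1 where counted past 1.5 times. Boundaries came from the RefSeq gene table of GRCm38.p6 (21887 protein-coding genes, no strand or exons), and strand from its promoter table (17492 genes). Members are named by the nearest boundary. Python 3.11.15, numpy 2.4.6, pandas 2.3.3 and scipy 1.17.1 were used.

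Named regions have a −log10 q of at least 5 in every list: the 5 of highest WT fold, the 4 highest and 4 lowest fold ratios per comparison, the 4 genes with most regions (ties by summed WT fold), up to 2 genes per list of highest WT fold, of which some are given, and the regions just inside and outside 1 kb. An item that this rule takes is not reported here. Of the list symbols, Sororin and Peg13 were recorded as not matched. The chromosome architecture list held 27 symbols and 25 matched genes, and the imprinted list 44 symbols and 42 matched genes. Why the remaining symbols of these lists gave no further gene is not recorded. The regions and lists were chosen with earlier results of these data known.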

Additional observations from a re-analysis of the deposited data

How the results depend on the processing

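Of 117 alternative values, 66 were labelled as the same, 49 as moved and 2 as reversed. Counts of higher and of lower regions were each labelled by their own size, so this label does not show whether a split turned. Without centring, the counts of SKO over WT and of SKO over TKO were labelled as the same although both splits turned. No paired analysis was possible because each list pools its 3 replicates, and for the same reason no replicate could be left out. By construction, a 500 bp window took fewer regions (2985; higher and lower 434 and 247 for TKO over WT, 425 and 353 for SKO over WT, 350 and 443 for SKO over TKO; WT fold 13.2; 71.3% at starts). A 2.5 kb window took more (8846; 1150 and 888, 1216 and 1059, 1131 and 1262 in the same order; 53% at starts), and its median difference of TKO over WT from other constant regions was 0.044. All gene biotypes gave 7395 regions, a difference of 0.041 for TKO over WT with 744 lower, 1035 and 915 for SKO over WT, and 954 and 1031 for SKO over TKO. A ratio of at least 2-fold left 139 and 60, 159 and 119, and 125 and 153. Apart from pileup over all chromosomes, shares of all constant regions are not given for the counts in this paragraph. These counts alone therefore do not show whether gene ends differ from other constant regions. Without centring, TKO over WT had 386 higher and 703 lower, and SKO over WT had 496 higher and 725 lower. The excess of higher regions in TKO and in SKO over WT thus holds only relative to all constant regions. The split of SKO over TKO turned as well, to 671 higher and 594 lower. With every −log10 q at 5 or more the WT fold was 13.5 at gene ends and 13.1 elsewhere. Pileup in place of fold gave 255 and 131, 318 and 232, and 276 and 292, a difference of 0.040 for TKO over WT, and reversed that of SKO over TKO to 0.004; the cause was not tested. Leaving out chromosomes 14 and X as well, chosen after seeing the data, gave 237 and 116, 295 and 210, 256 and 270, and differences of 0.039 for TKO over WT and 0.006 for SKO over TKO.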
